A study of Mus musculus with 2 samples.

Results

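Cytoplasmic ribosomal protein genes encode the proteins that, with ribosomal RNA, form the large (Rpl) and small (Rps) subunits of the ribosome. They were examined here for RUNX2 peaks in MC3T3-E1 cells, an established line of mouse osteoblast precursors. The rule that chose the members uses gene names and positions, and was set with earlier results of these data known. It takes protein-coding RefSeq genes on chromosomes 1 to 19 whose symbol starts with Rpl or Rps and a digit, or is Rplp0, Rplp1, Rplp2 or Rpsa, without the Rps6k kinase genes, names ending in l and pseudogenes. This gave 79 of 20665 protein-coding genes, 46 of them Rpl and 33 Rps. Of the 79, 73 have the symbol of a canonical ribosomal protein. The other 6, which the rule also takes, are Rpl7l1 and Rpl22l1 (paralogues), Rpl37rt, Rps27rt and Rps23rg1 (named as retrogenes) and Rps19bp1, which encodes a protein that binds the RPS19 protein. The data are 2 replicate CUT&Tag libraries of 1 group of untreated cells, made with an antibody against RUNX2, the Runt-family factor required for bone formation. In CUT&Tag the antibody directs the transposase Tn5 to chromatin, and peaks are called where its cuts pile up. The peak lists hold 26853 peaks in replicate 1 and 27287 in replicate 2, each given by position and width. Heights and read depth are unknown. No control library is among the samples, so what an unspecific antibody would give at these genes was not tested. Nothing in the labels ties the 2 libraries to separate cultures, so differences between them may reflect technical spread alone.

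Ribosomal protein genes are short, are transcribed at high levels in most cells and start within a run of pyrimidines, the terminal oligopyrimidine (TOP) element, through which mTOR signalling controls translation of their mRNAs. Their promoters are CpG-rich and are known to hold sites for ETS factors such as GABP, and often for YY1 and SP1. RUNX proteins bind DNA through the Runt domain at the core letters TGTGGT. In bone cells, collagen and matrix synthesis places a high demand on protein synthesis.

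The promoters below show what the deposited peaks cover. Each line is the RefSeq sequence (GRCm38.p6) from 120 bp before to 20 bp after the first listed start, read 5′ to 3′ on the gene's strand. Capitals mark the run of C and T that holds the start base, the RUNX letters TGTGGT (or ACCACA), the ETS letters CGGAAG (or CTTCCG) and the YY1 letters GATGGC (or GCCATC), and neighbouring marks can run together. Rps6 (chr4:86857348-86857487, minus strand) and Rps18 (chr17:33955646-33955785, minus strand) are shown for 3 ETS matches and a pyrimidine run each. Rpl7a (chr2:26910687-26910826, plus strand) has the longest pyrimidine run of the 59 members with a listed start, 21 bases. Rpl18 (chr7:45717951-45718090), Rps2 (chr17:24719943-24720082) and Rps25 (chr9:44407594-44407733), all on the plus strand, hold RUNX letters. Rps24 (chr14:24490558-24490697, plus strand) and Rps7 (chr12:28635934-28636073, minus strand) are members without a shared region.
Rps6: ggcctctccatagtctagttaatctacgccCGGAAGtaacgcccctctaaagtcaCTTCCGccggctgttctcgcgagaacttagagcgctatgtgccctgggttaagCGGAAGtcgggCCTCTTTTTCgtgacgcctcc
Rps18: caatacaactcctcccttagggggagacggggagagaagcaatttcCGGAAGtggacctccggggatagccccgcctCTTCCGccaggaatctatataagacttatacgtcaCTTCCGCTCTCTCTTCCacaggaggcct
Rpl7a: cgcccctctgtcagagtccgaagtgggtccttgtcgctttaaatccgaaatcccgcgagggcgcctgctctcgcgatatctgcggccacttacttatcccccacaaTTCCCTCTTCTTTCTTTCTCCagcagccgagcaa
Rpl18: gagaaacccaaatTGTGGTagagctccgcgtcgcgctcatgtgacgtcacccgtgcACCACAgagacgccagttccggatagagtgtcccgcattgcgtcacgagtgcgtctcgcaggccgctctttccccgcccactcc
Rps2: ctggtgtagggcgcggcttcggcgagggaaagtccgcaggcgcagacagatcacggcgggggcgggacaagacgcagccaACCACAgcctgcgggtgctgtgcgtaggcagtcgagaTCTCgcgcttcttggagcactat
Rps25: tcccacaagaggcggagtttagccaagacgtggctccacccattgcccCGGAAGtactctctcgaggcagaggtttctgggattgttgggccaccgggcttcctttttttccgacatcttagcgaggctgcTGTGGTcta
Rps24: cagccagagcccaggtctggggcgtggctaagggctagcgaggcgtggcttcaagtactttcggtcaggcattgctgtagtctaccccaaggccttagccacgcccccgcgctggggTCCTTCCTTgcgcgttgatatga
Rps7: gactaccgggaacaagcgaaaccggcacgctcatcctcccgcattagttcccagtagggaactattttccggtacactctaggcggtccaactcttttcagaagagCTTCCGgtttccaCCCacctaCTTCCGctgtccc
All 140 bases of the Rps18, Rpl7a, Rpl18 and Rps2 stretches lay inside a peak in both replicates. For Rps6, 81 bases lay in the peak of replicate 1 and 140 in that of replicate 2, and for Rps25 the numbers were 104 and 140. For Rps24, 108 bases lay in a peak of replicate 1 and 0 in replicate 2. Rps7 had 0 in both, since its replicate 2 peak (28635462 to 28635814) lay inside the gene, 139 bp from its high end.

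Most ribosomal protein genes carried a RUNX2 region found in both replicates. A shared region is the whole stretch covered by peaks of both lists that overlap by at least 1 bp, including the parts covered by a single list, and it was linked to a gene when it touched the gene's span or the 10 kb beyond either end. Of the 79 genes, 67 (84.8%) were linked to a shared region, against 54.8% of all protein-coding genes. They held 92 shared regions in all, of 17836 on chromosomes 1 to 19. Ribosomal protein genes have a median span of 3230 bp against 17491 bp for all protein-coding genes, and among protein-coding genes no longer than the longest member (16779 bp) 44.9% were linked. In the single lists, the numbers of the 79 with a peak were 70 (replicate 1) and 74 (replicate 2), a mean of 72 ± 2.83 (SD, n = 2), where 62.7% and 62.8% of all protein-coding genes had one. These shares are descriptions. No test was made, since the design holds 1 group and genes are not replicates.

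The regions sat on the start of the gene. RefSeq start positions with strand were at hand for 59 of the 79 genes, and the first listed start was used. Of these 59, 45 (76.3%) had a shared region within 1 kb of the start, against 35.4% of 16457 protein-coding genes with a listed start. In all 45 the region, taken as the union of both lists' peaks, covered the start base. Among all protein-coding genes with a region near the start, 84.6% had the base covered. Over all genes with a listed start, the shares covered were 76.3% of the 59 and 29.9% of the 16457. In 38 of the 59 (64.4%) the start base lay inside a peak of both lists, against 24.8% of all protein-coding genes. At the rest of the 45 the peak of at least 1 list missed the base, as at Rpl38, where the peak of replicate 2 did not reach it. In replicate 1, 47 genes had a peak within 1 kb of the start (40.1% of all protein-coding genes did), and in replicate 2, 52 did (40.3%). With the peak of only 1 list counted as well, 54 of the 59 had a peak near the start, a count not made for all protein-coding genes. The 5 without any were Rpl11, Rpl24, Rpl37rt, Rps23rg1 and Rps27rt, the last 3 being the retrogenes.

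Peak midpoints at the 45 starts lay a little upstream. Relative to the start, with negative values upstream, the median midpoint was -86.5 bp in replicate 1 (range -334 to 363) and -94.5 bp in replicate 2 (range -316.5 to 427). Over all protein-coding genes with a region near the start, the medians were -44.5 and -46.5 bp. The midpoint was downstream of the start at 13 of 45 genes in replicate 1 and 16 in replicate 2, or 28.9% and 35.6%, against 41.8% and 42.2% for all protein-coding genes. The regions reached a median of 429 bp upstream and 258 bp into the gene, where those of all protein-coding genes reached 365 and 303 bp.

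**Figure D1:**
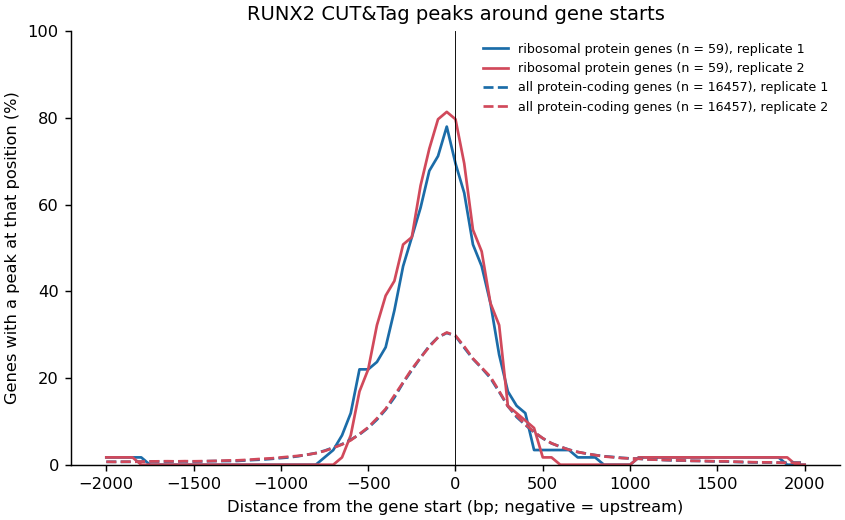
Share of genes (vertical axis, percent) whose position at a given distance from the start (horizontal axis, bp, sampled every 50 bp) lay inside a peak, for 59 ribosomal protein genes (solid) and 16457 protein-coding genes (dashed) in replicate 1 (blue) and replicate 2 (red). At the start 69.5% and 79.7% of ribosomal protein genes lay in a peak, against 29.7% and 29.8%, and 500 bp downstream 3.39% and 1.69% did, against 6.08% and 6.12%.

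Peak coverage fell off over a short distance on both sides, as the plot of coverage around the start shows. At 250 bp upstream 52.5% of the ribosomal protein genes lay in a peak in each replicate (21.8% and 22.1% of all protein-coding genes), and 250 bp downstream 25.4% and 32.2% did (16.8% and 17%). At 1 kb on either side the value was 0 of 59 in both replicates, where 1.45% to 1.68% of all protein-coding genes were covered. Such values are too low to compare, since 1 of the 59 genes is already 1.69%. At 1050 bp downstream 1 gene lay in a peak in each replicate, against 1.39% and 1.38% of all protein-coding genes. The far ends of the genes were mostly bare. Of the 48 genes over 2 kb long from start to far end, 3 had a shared region within 1 kb of the far end (6.25%, against 3.32% of all such protein-coding genes). For the 20 genes with no start in the table, either end of the span was used, and 17 had a shared region within 1 kb of an end. In all, 62 of the 79 genes had a shared region at the listed start or, without one, at an end. Counted the same way for every gene, 59 of 79 (74.7%) had a shared region within 1 kb of either end of the span, against 34.6% of all protein-coding genes. Rpl19, Rpl22 and Rps2 are not among these 59, because their first listed start lies inside the span, over 1 kb from its ends.

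Both subunits were well represented. Of the canonical genes, 40 of 43 Rpl genes (93%) and 24 of 30 Rps genes (80%) had a shared region. Within 1 kb of the listed start the counts were 26 of 31 (83.9%) and 17 of 22 (77.3%). Over all protein-coding genes the shares were 54.8% linked and 35.4% near the start. The difference between subunits was not tested. All 3 genes of the acidic stalk, the flexible arm of the large subunit that recruits elongation factors, had a region at an end or start. Rplp0, which encodes the base of the stalk (chromosome 5, 115559272 to 115559954), had widths of 630 bp in replicate 1 and 683 bp in replicate 2. Rplp2 (chromosome 7, 141447210 to 141448015) had 445 and 806 bp, and Rplp1 (chromosome 9, 61914474 to 61914876) had 272 and 360 bp, the narrowest of the 3. Of the 28 genes that hold a small nucleolar RNA gene within their span, 25 were linked, and of the 51 others 42 were (89.3% and 82.4%, against the same 54.8%).

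Among the widest regions at a gene's own start or end were those of Rpl7, Rps29, Rpl23 and Rpsa. The region at Rpl7 (chromosome 1, 16104345 to 16105323) measured 866 bp in the first list and 924 bp in the second, and Rps29 (chromosome 12, 69158820 to 69159807) had 988 and 816 bp. Both were above the 90th percentile of width of their list in each replicate, as was Rpl23 (chromosome 11, 97782161 to 97783011), at 843 bp in each. Rpsa, which encodes the small subunit protein also known as the laminin receptor (chromosome 9, 120127185 to 120128039), had 803 and 779 bp. At the other end of the order, Rpl8 (chromosome 15, 76904037 to 76904228) had 168 and 177 bp, Rps20 (chromosome 4, 3832240 to 3832486) 247 and 168 bp, and Rpl31 (chromosome 1, 39367690 to 39367947) 258 and 179 bp. The narrowest peaks in any shared region were 163 bp in replicate 1 and 160 bp in replicate 2. Rpl8 was near these in both lists, and Rps20 and Rpl31 in replicate 2 but not in replicate 1.

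**Figure D2:**
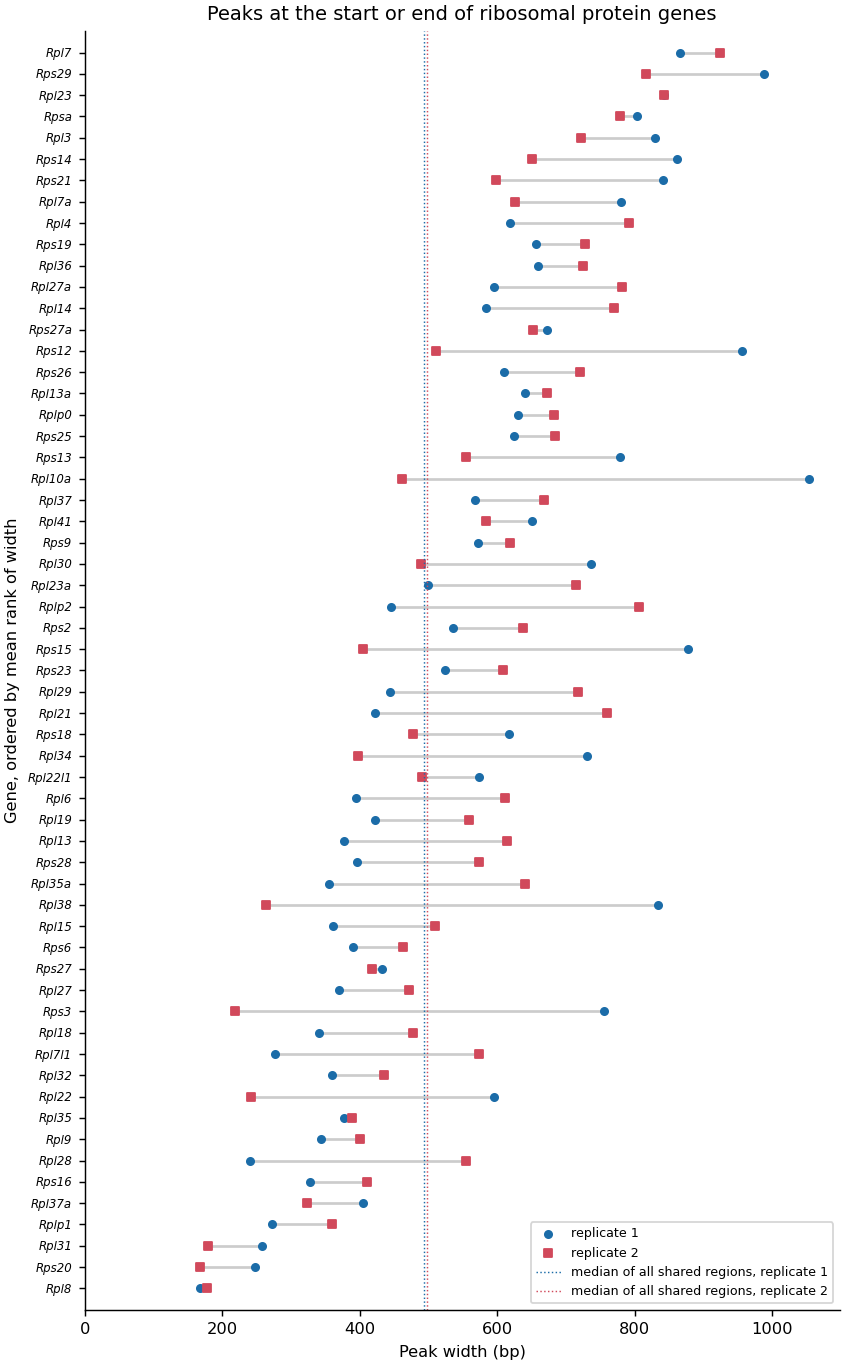
Width in bp (horizontal axis) of the peak at the start, or at an end where no start is listed, for 59 of the 62 ribosomal protein genes that have a shared region there, in replicate 1 (blue circles) and replicate 2 (red squares), ordered by mean rank of width. Dotted lines mark the medians of all shared regions (493 and 498 bp), and the genes run from Rpl7 at 866 and 924 bp to Rpl8 at 168 and 177 bp.

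Over all 62 genes the width ranged from 168 to 1054 bp in replicate 1 (median 578.5) and from 168 to 924 bp in replicate 2 (median 590.5). The medians are above those of all shared regions (493 and 498 bp). At the 45 listed starts the medians were 574 and 573 bp, close to the 549 and 554 bp of all shared regions within 1 kb of a protein-coding start. The replicates differed in width at single genes. Rpl10a measured 1054 bp in replicate 1 and 462 bp in replicate 2, Rpl38 834 and 263 bp, and Rps3 755 and 219 bp, and these 3, named after their values were seen, were wider in replicate 1. Rpl28 went the other way, with 240 and 554 bp. At the 45 starts the median difference between replicates was 138 bp, 13 genes differed by over 1.5 times, and 17 were wider in replicate 1 and 27 in replicate 2. The order of single genes by width in the plot of widths is therefore loose.

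No shared region was linked to 12 ribosomal protein genes, and for most of them a peak in a single list lay at the gene's end. The 9 canonical ones included Rpl5, Rpl11, Rpl26, Rps3a1, Rps7, Rps15a and Rps24, and the others were the retrogenes Rpl37rt, Rps23rg1 and Rps27rt. Of the 9, all but Rpl11 had a peak within 500 bp of an end in exactly 1 replicate, Rps15a and Rps24 in replicate 1 and the other 6 in replicate 2. How often other protein-coding genes without a shared region have such a peak was not counted. The 9 peaks at these 8 genes were 260 to 475 bp wide (median 324). At Rpl26, which encodes a large subunit protein, the replicate 2 peak was 475 bp wide (chromosome 11, 68901103 to 68901577). At Rps24 the replicate 1 peak was 282 bp wide (chromosome 14, 24490590 to 24490871), and at Rpl5, whose product escorts the smallest ribosomal RNA of the large subunit together with RPL11, the replicate 2 peak was 260 bp wide (chromosome 5, 107900537 to 107900796). The replicate 2 peak at Rps3a1 was 370 bp wide, and Rps15a had replicate 1 peaks of 260 and 353 bp. At Rpl11 the 1 peak in reach, 201 bp in replicate 2, lay 4700 bp from the gene. Rps23rg1 and Rps27rt had no peak in either list, and Rpl37rt had a replicate 1 peak 8877 bp away. The nearest shared region lay 13187 bp from Rps7 and 276570 bp from Rps24.

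Genes mutated in Diamond-Blackfan anaemia, an inherited failure of red cell production caused by loss of 1 copy of a ribosomal protein gene, made up 7 of these 12. Of the 19 genes on that list, 12 (63.2%) had a shared region, against 54.8% of all protein-coding genes. The 7 without one included Rpl5, Rpl11, Rpl26, Rps7, Rps15a and Rps24. Among the canonical genes outside the list 52 of 54 (96.3%) had one, and Rps3a1 was among the exceptions. Within 1 kb of the listed start the counts were 10 of 17 (58.8%) and 33 of 36 (91.7%), against 35.4% of all protein-coding genes. The list was written from textbook knowledge, the contrast was noticed in these counts and was not tested, and 6 of the 7 had a peak at an end in 1 replicate. Of the listed genes with a region, the widest was at Rpl35a, at 964 and 1264 bp, but it lay 1546 bp beyond the gene at the end of Lmln. Rps29, described above, came next.

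**Figure D3:**
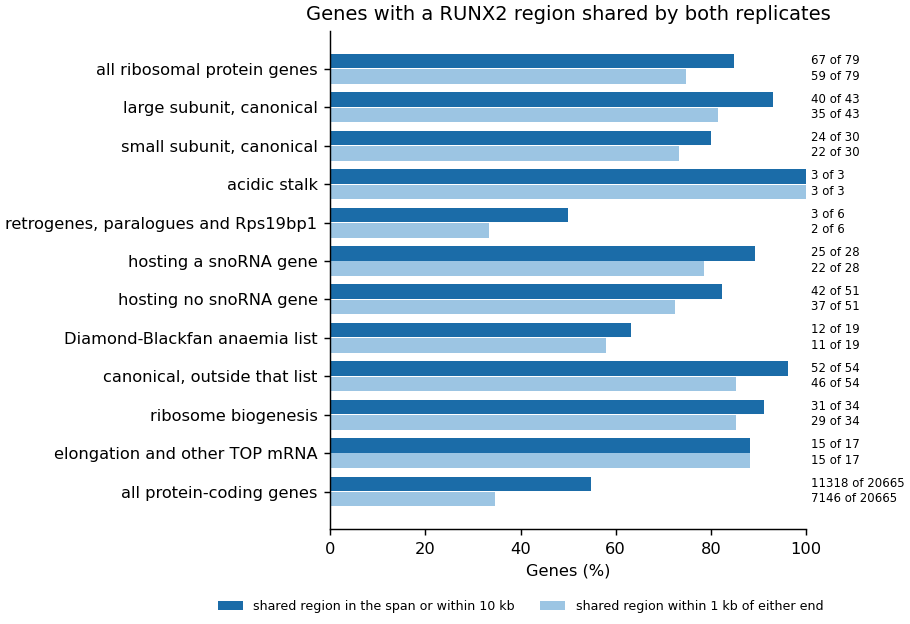
Percent of genes in each group with a region shared by both replicates, in the span or within 10 kb (dark bars) or within 1 kb of either end (light bars), with the counts at the right. The Diamond-Blackfan anaemia list (12 of 19) and the 6 retrogenes, paralogues and Rps19bp1 (3 of 6) stand closest to all protein-coding genes (54.8%) for the dark bars, and the canonical genes outside that list reach 52 of 54.

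By the ends of the span, 8 of the 79 genes (10.1%) had all their shared regions over 1 kb away, against 20.2% of all protein-coding genes. These 8 include Rpl19, Rpl22 and Rps2, whose region covers the listed start, and 5 genes whose regions all lay outside the gene. For Rpl12 the region lay 2238 bp away (chromosome 2, 32966283 to 32967564), with 759 bp in replicate 1 and 1282 bp in replicate 2. For Rpl24 it lay 1963 bp away, equally far from Zbtb11. Rps10 had 2 regions, 2289 and 6550 bp away, the latter 70 bp from Nudt3. The regions of Rpl17 (2196 bp away) and Rps19bp1 (4513 bp away) covered the ends of other protein-coding genes, BC031181 and Atf4. The Rps19bp1 region was among the widest linked to any member, 1093 and 1321 bp, and its position belongs to Atf4, which encodes a stress response factor. Rpl12, Rps10 and Rps19bp1 had a peak near the listed start in replicate 2 alone.

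Of the 79 genes, 42 had 1 shared region, 23 had 2, and Rpl7a and Rpl23a had 3. That 25 genes (31.6%) had more than 1 compares with 22.8% of all protein-coding genes. The 23 included Rpl4, Rpl7l1, Rpl8, Rpl10a, Rpl13, Rpl13a, Rpl18, Rpl29, Rpl35, Rpl35a, Rpl37, Rpl38, Rpl41, Rplp2, Rps2, Rps9, Rps10, Rps20, Rps25, Rps27 and Rps28. Some of the additional regions covered an end of a neighbour. Leaving out the region counted at each gene's start (or at an end, without a listed start), 30 member regions remained. Of these, 17 covered an end of another protein-coding gene, a share not computed for all shared regions. Some of the 30 still lay at or near the member's far end, as at Rpl4 (264 bp away) and Rpl41. The widest region linked to any member, 1558 and 1151 bp, lay 9640 bp from Rps9 at the ends of Mboat7 and Tsen34. Rpl41, which encodes a very short large subunit protein, had 1 region over its start (650 and 583 bp) and a wider one over its far end (824 and 895 bp) that also covered an end of Zc3h10. The region at the start of Rpl7a was 780 and 626 bp wide. Its other regions, 7140 and 3015 bp from the gene, covered the ends of Surf6 (786 and 919 bp) and of Surf1 with Surf2 (207 and 570 bp), genes of the same cluster. At Rpl13a the region 45128692 to 45129364 on chromosome 7 covered the start (641 and 673 bp). With each region given only to the gene with the nearest end, 65 of the 79 kept a region, against 45.7% of all protein-coding genes. Where the ends of several genes were equally near, each of them kept the region, so these links are not exclusive either. Among genes with a listed start, another protein-coding start lay within 1 kb of that of 8 members. A shared region lay at the start of 7 of these 8 and of 38 of the other 51. The same split was not counted for all protein-coding genes. Genes with no listed start were not searched, so neighbours can be missed. The start region of Rpl4, counted among the 51, also covered an end of Zwilch. Those of Rpl15, Rpl37, Rplp2 and Rps25, also among the 51, covered an end of Nkiras1, Card6, Pidd1 and Trappc4, respectively.

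Both lists placed most of their peaks at these genes in the same places. Of 110 replicate 1 peaks within 10 kb of a member, 93 overlapped a replicate 2 peak (84.5%, 95% Wilson interval 76.6 to 90.1), and of 117 replicate 2 peaks 92 overlapped one of replicate 1 (78.6%, 70.4 to 85.1). For all peaks on chromosomes 1 to 19 the shares were 68.4% (67.9 to 69.0) and 67.3% (66.7 to 67.9). Near the listed starts they were 45 of 48 (93.8%, 83.2 to 97.9) and 45 of 52 (86.5%, 74.7 to 93.3), where peaks near any protein-coding start gave 85.2% (84.3 to 86.1) and 84.9% (84.0 to 85.8). The intervals cover counting error only. The member peaks found in 1 list were narrower, with medians of 282 bp in replicate 1 and 314 bp in replicate 2, against 574 and 578 bp for those found in both.

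The RUNX core letters were about as frequent in the promoter windows of ribosomal protein genes as in all windows. In the 300 bp window from 250 bp before to 50 bp after the start, TGTGGT on either strand was found in 8 of 59 ribosomal protein genes (13.6%), against 14.9% of all 16457 windows. Where a shared region overlapped the window it was found in 5 of 45 (11.1%), against 11.9% of the 5422 protein-coding windows with a region. The 5 were Rpl6, Rpl18, Rps2, Rps12 and Rps25. Rpl18 held 2 matches, beginning at -107 and -64, Rps2 had 1 at -40 and Rps25 had 1 at 12, counted from the first transcribed base as 1, as in the sequences above. The windows of Rps3a1, Rps27rt and Rpl37rt held a match and no shared region. Only these exact letters were searched. The regions extend beyond the window, and letters outside it were not searched.

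ETS letters were frequent, and a pyrimidine start was more frequent than in all windows. CGGAAG was found in 38 of 59 windows (64.4%), against 21.9% of all windows and 40.8% of those with a shared region. Within the members it was equally common where a shared region overlapped the window (29 of 45, 64.4%) and where none did (9 of 14, 64.3%). Over all protein-coding windows these shares were 40.8% and 12.6%. Rps18 had 4 matches and Rps6, Rps7, Rps21, Rpl37 and Rpsa had 3 each. The YY1 letters GATGGC were in 20.3% (13.7% of all windows) and the SP1 letters GGGCGG in 57.6% (47.3%). The AP-1 letters TGANTCA were at 3.39% (7.17%), the TEAD letters GGAATG at 8.47% (13.2%), the TATA box TATAAA at 6.78% (13.5%) and the E-box CACGTG at 8.47% (7.96%). Among windows with a shared region the order differed for several of these. There SP1 letters were in 64.4% of ribosomal protein windows and 70.8% of protein-coding windows, AP-1 letters in 4.44% and 4.41%, and the TATA box in 8.89% and 6.09%. YY1 letters were in 17.8% and 15.8%, TEAD letters in 6.67% and 10.9%, and the E-box in 11.1% of both. None of these letter strings contains another, though matches can overlap in a window. The start base was C in 23 of 59 (39%), against 13.8% of all windows, and lay in a run of 5 or more C and T in 19 (32.2%, against 8.64%). The median run was 1 base, so most listed starts lay outside such a run. Whether the listed start is the one used in these cells was not tested, and all positions relative to the start share this limit. These letter counts rest on the reference and on the listed start alone. They do not show binding.

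**Figure D4:**
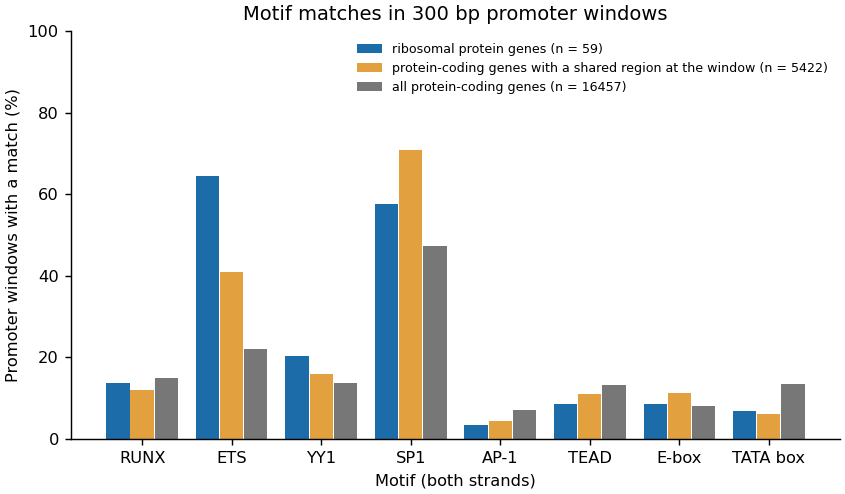
Percent of 300 bp promoter windows with at least 1 match on either strand (vertical axis) for 8 motifs, in 59 ribosomal protein genes (blue), in 5422 protein-coding windows with a shared region (orange) and in all 16457 protein-coding windows (grey). The ETS match is at 64.4% in ribosomal protein genes against 21.9% of all windows, and the RUNX match at 13.6% against 14.9%.

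CpG content moved with the presence of a region among all genes. The CpG observed/expected ratio, the count of CG pairs relative to that expected from the C and G content, had a median of 0.90 in ribosomal protein windows against 0.60 in all windows. Shared regions overlapped 1.31% of windows in the lowest of 5 equal bins of all windows by this ratio and 60.6% in the highest. Of the 59 ribosomal protein windows 30 were in the highest bin, and 28 of them (93.3%) were overlapped. In bins 3 and 4, counted from the lowest, 9 of 13 (69.2%) and 7 of 13 (53.8%) were, against 38.3% and 57.2% of all windows. In bin 2, 1 of 3 was, against 7.38% of all windows. Among ribosomal protein genes the ratio had a median of 0.93 where a shared region overlapped the window and 0.74 where none did. Over all protein-coding windows these medians were 0.82 and 0.35. Whether CpG content has a part in the high share of ribosomal protein genes was not tested, and the bins were formed after the counts above were known.

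**Figure D5:**
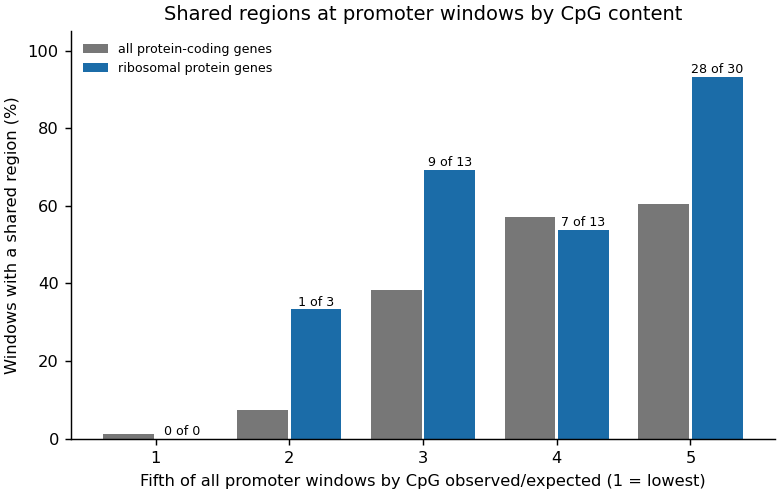
Percent of promoter windows overlapped by a shared region (vertical axis) in 5 equal bins of all windows by CpG observed/expected ratio (horizontal axis), for all protein-coding genes (grey) and ribosomal protein genes (blue, with counts). The share rises from 1.31% to 60.6% over all genes, and 28 of the 30 ribosomal protein windows in the highest bin are overlapped.

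Other genes of ribosome production and translation also carried shared regions. Of 34 ribosome biogenesis genes, which make, modify and assemble ribosomal RNA and subunits, 31 (91.2%) had a shared region and 23 of 28 had one near the listed start. The widest were at Eif6, which keeps the large subunit from joining too early (1357 and 1108 bp), and Rrp9, a component of a small nucleolar ribonucleoprotein (1006 and 1053 bp). Of 17 genes for elongation factors and other TOP mRNAs, 15 (88.2%) had a region, all within 1 kb of an end, Eef1b2 and Eif3e being the exceptions. The widest were at Eef1g, at 1713 and 1169 bp but 4475 bp from the gene, and at Hnrnpa1, an RNA-binding protein gene, at 1113 and 1300 bp. Eef1a1, which encodes the factor that delivers aminoacyl-tRNA to the ribosome and was named after its values were seen, had 861 and 859 bp. Of the 7 genes found on the list of ribosomal protein paralogues, 5 had a region. These include Rpl7l1 and Rpl22l1, which are also among the 79 members. The widest were those of Rpl7l1 (619 and 817 bp, 571 bp from the gene and covering an end of 2310039H08Rik) and Rps27l (691 and 531 bp). Of all protein-coding genes, 54.8% were linked, 35.4% had a region near the listed start and 34.6% had one within 1 kb of either end.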

How the data were processed

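RUNX2 CUT&Tag peaks of 2 replicate libraries of untreated MC3T3-E1 cells were analysed. The submitters' processing notes name fastp 0.19.6, Bowtie2, deepTools and GRCm38 (mm10). Which peak caller, threshold or control was used is not given in the sources used here. Per replicate, the authors deposited a list of the chromosome, start, end and width of each peak with no score. The width is end minus start plus 1 in every line, so positions were read as counted from 1 with both ends included.

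Peaks were joined to RefSeq spans and promoter windows of GRCm38.p6 with Python 3.11.15 and pandas 2.3.3. Links are not exclusive and show position only. Overlap counts equalled those from bedtools 2.31.1, and the linking was tested on simulated data. Wilson intervals are at the 95% level (SciPy 1.17.1). The planned count near starts uses the 59 members with a listed start. Motifs were searched in the first listed window of each gene, on both strands.

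The members and lists were chosen with earlier results of these data known. Named are the 10 members with the widest linked region by mean rank of width, those with no shared region, with 2 or more, or with regions only over 1 kb from their own ends, the stalk genes, up to 10 with regions nearer to other genes, and 2 genes of each other list. Other named genes serve to show a range or a count. The single values of a few genes are not reported here, though the counts and medians include them. The alternatives tried were each replicate alone, a reciprocal overlap of 50%, only wide peaks, other distances, nearest-gene links, other members, chromosomes and background, and, added after the data were seen, peak midpoints and any listed start.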

Additional observations from a re-analysis of the deposited data

How the results depend on the processing

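The 2 lead counts stayed above the share of all protein-coding genes under every alternative run, 12 for the 67 genes linked to a shared region and 11 for the 45 with a region near the start. Leaving out a replicate gave 70 to 74 linked genes and 47 to 52 near the start. The number linked ranged from 46 of 79 (58.2%, against 37.9% of all protein-coding genes) when each list was limited to its wider peaks (above its median width) to 78 of 79 within 50 kb (98.7%, against 72.3%). Near the start, wide peaks alone left 28 of 59 (47.5%, against 22.5%), a fall of over 1.5 times, and a reciprocal overlap of 50% left 36 (61%, against 28.6%). The wide peaks are by construction fewer. The median width of the members' regions, 577.25 bp as the mean of both replicates, was 599.5 bp with only regions within 1 kb of an end of the member and 599.5 bp with a reciprocal overlap of 50%. The share of member peaks found in both lists, 81.6% as a mean, was 66.1% with a reciprocal overlap of 50% and 88.6% within 1 kb of an end. No paired analysis was possible because the series has 1 group. With no score, read depth or control in the lists, a gene without a peak may carry signal below the calling limit, and the limit may differ between the replicates.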

Other observations

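The ribosomal protein genes on chromosome X, which the rule left out, mostly had a region as well. Of the 4, Rpl10, Rpl36a and Rpl39 had a shared region over an end of the gene, where 25.6% of the 966 protein-coding genes of chromosome X were linked to any shared region. The Rpl10 region measured 1447 and 1037 bp in replicates 1 and 2. Rpl39 had 437 and 507 bp, and Rpl36a 215 and 169 bp. Rps4x had 1 peak in reach, in replicate 2 alone.

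Of the genes that encode a ribosomal protein under another name, Fau, whose product is fused to a ubiquitin-like protein, had 2 shared regions, and Rack1, a scaffold on the small subunit, had 1 across an end of the gene (628 and 474 bp). Of the names ending in l, Rpl36al and Rps27l had 1 region each, and Rpl3l had 2, of which the widest, 7505 bp away, is the region over the start of Rps2. Rpl10l, Rpl32l and Rpl39l, and the protein-coding entries Rpl31-ps12 and Rpl34-ps1, had no peak in either list.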
